A study of Mus musculus with 2 samples.

Results

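GDNF and neurotrophin signalling was described in freshly sorted muscle stem cells (MuSCs, the resident Pax7-expressing stem cells of skeletal muscle) through 9 genes out of 24532 gene IDs in the deposited table. The genes were 5 ligand genes (Gdnf, Nrtn, Bdnf, Ntf3 and Ntf5) and 4 receptor genes (Gfra1, Gfra2, Ret and Ngfr), picked by symbol with earlier results of these data known, and the counts of all transcript rows of a gene were added. There were 2 RNA-seq libraries. The dKO library came from male C57BL/6 mice that carried Pax7-CreER (Cre recombinase switched on by tamoxifen in Pax7-expressing cells), Esr2-/- (no functional copy of the estrogen receptor beta gene) and the deletion of a further gene, left unreported here. The WT library came from male C57BL/6 mice whose genotype is given only as WT. Per the labels' protocols, tamoxifen (20 mg/mL in corn oil) was given by mouth on 5 days in a row to mice aged 3 months, and limb muscle was digested and sorted for Vcam1-positive cells that lacked CD31, CD45 and Sca1. The titles carry the mark 6M, and neither its meaning nor the number of mice behind a library is stated there.

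Glial cell line-derived neurotrophic factor (GDNF) and its relative neurturin are secreted dimers that bind a GPI-anchored co-receptor of the GFRα family, and this complex activates the receptor tyrosine kinase Ret. The neurotrophins BDNF, NT-3 and NT-4 act through Trk receptor tyrosine kinases, and all neurotrophins also bind the p75 receptor encoded by Ngfr. In muscle, GDNF and the neurotrophins are best known as factors that support motor and sensory neurons, and BDNF and p75 have also been described in muscle progenitor cells.

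With 1 library per group, no difference has a replicate check, no test between the genotypes was possible, and each statement compares these 2 libraries. Whatever else differed between them cannot be told apart from the genotype. The totals were 43699831 reads in dKO and 36636680 in WT, and intervals cover counting error only. Levels are CPM (counts per mega-read of library size after scaling by the trimmed mean of M values, TMM). A fold is a ratio of CPM with its exact 95% interval, and a log2 ratio is that of dKO CPM + 1 over WT CPM + 1. A gene counted as measured when 1 library or both held 10 or more of its reads, and as 2-fold apart when its log2 ratio then reached 1 or −1. Esr2 itself had 45 counts in dKO (32.8 to 60.2) and 71 in WT (55.5 to 89.6), and because the deleted part is not given, these counts check nothing about the label. The 12 muscle stem cell markers were all measured, with Pax7 at 315 CPM in dKO and 558 CPM in WT.

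Gdnf and Bdnf were the 2 members higher in dKO by the 2-fold rule, and 0 members were lower. Among all 14885 measured genes, 1.92% were 2-fold higher and 4.3% were 2-fold lower. In either direction 6.22% were 2-fold apart, and 69.1% of these were lower, against 88.9% under library totals alone and 58.2% once a cubic trend on abundance and transcript length was taken out. Of the 9 members, 8 were measured, with a median log2 ratio of 0.05, against −0.02 over all measured genes. The members differed among themselves more than this median shows, with log2 ratios that ran from −0.80 for Ret to 2.14 for Gdnf. Since the genes were picked with results known, these counts describe the members and are no evidence about the pathway.

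**Figure D1:**
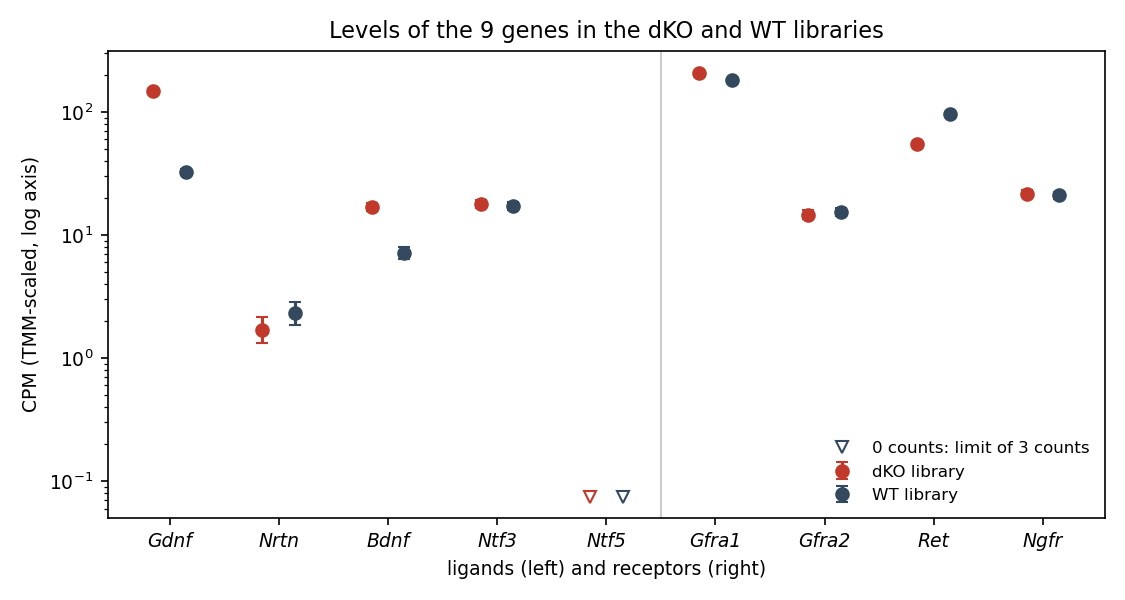
Levels of the 9 genes as TMM-scaled CPM on a log axis, ligand genes on the left and receptor genes on the right, with dKO left of WT and bars for the exact 95% Poisson interval. Gdnf stands at 148 CPM in dKO and 32.7 CPM in WT, Ret is the receptor gene with the widest gap, and open triangles mark Ntf5, with 0 counts, at the floor of 3 counts.

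The promoters of the 2 higher members are shown because their RNA differed most, taken from RefSeq on GRCm38.p6 as windows of 300 bases, 250 before a start site and 50 from it on. Of the members, 6 had promoters in that table, 14 windows in all. Capitals mark matches, on either strand, to TGANTCA, a loose form of the AP-1 element in which N is any base. Likewise marked are the cyclic AMP response element TGACGTCA, the palindromic estrogen response element, the E-box CAGCTG and the TATA box TATAAA. Both Gdnf windows lie on the plus strand of chromosome 15, and the Bdnf windows on the plus strand of chromosome 2.
Gdnf, chr15:7809798-7810097: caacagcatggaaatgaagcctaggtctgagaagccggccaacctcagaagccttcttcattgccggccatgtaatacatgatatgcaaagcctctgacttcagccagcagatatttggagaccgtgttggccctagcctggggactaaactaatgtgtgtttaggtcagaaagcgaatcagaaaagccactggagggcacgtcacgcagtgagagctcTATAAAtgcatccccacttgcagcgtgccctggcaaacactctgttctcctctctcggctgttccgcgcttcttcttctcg
Gdnf, chr15:7813477-7813776: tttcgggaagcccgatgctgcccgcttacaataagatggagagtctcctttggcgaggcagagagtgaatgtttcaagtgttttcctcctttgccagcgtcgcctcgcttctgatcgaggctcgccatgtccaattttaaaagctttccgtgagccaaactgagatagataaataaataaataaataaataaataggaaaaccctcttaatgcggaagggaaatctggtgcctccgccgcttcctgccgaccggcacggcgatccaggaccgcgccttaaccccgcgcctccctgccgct
Bdnf, chr2:109676782-109677081: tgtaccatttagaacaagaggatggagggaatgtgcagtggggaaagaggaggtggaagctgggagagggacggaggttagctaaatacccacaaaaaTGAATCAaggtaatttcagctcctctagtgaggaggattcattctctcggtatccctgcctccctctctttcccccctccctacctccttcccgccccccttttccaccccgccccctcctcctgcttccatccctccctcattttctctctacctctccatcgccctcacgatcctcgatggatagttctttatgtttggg
Bdnf, chr2:109694159-109694458: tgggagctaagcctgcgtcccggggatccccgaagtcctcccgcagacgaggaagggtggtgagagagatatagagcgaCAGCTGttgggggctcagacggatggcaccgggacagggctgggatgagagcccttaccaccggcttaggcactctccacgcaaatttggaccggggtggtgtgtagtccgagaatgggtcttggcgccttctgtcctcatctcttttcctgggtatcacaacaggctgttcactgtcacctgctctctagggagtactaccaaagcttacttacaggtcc
The upstream Gdnf window holds a TATAAA whose first base lies 31 bases before the start site, and the downstream Gdnf window holds none of the 5 motifs. Of the 7 Bdnf windows, 1 holds a TGANTCA match and 1 a CAGCTG match, at 152 and 171 bases before their start sites. The other 5 hold no match. The windows of Nrtn, Ngfr and Gfra1, 1 each, also hold a CAGCTG match, and the 2 Ntf3 windows hold no match. Over all 32851 windows, 13.6% hold TATAAA, 7.81% hold TGANTCA, 16.3% hold CAGCTG, 1.79% hold TGACGTCA and 0.0700% hold the estrogen response element. A match is only a run of letters, and the files do not say which start site the RNA came from.

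Gdnf, the gene of the founding ligand of its family (Entrez ID 14573, protein-coding, chromosome 15, 7810846 to 7837575 on the plus strand of GRCm38 in GENCODE M21), showed the widest difference of the 9 genes. It had 5903 counts in dKO and 1307 in WT, which is 148 CPM in dKO (144 to 151) and 32.7 CPM in WT (30.9 to 34.5). The 2 counting intervals lie far apart, and the dKO level was 4.51-fold the WT level (4.25 to 4.80). The log2 ratio of 2.14 ranked 21st from the highest among the 14885 measured genes. It stayed past 2-fold in each of the 6 alternatives of scaling, pseudocount, row choice and trend removal, between 1.89 and 2.17.

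The table splits Gdnf into 4 transcript rows, told apart only by their length. The row of 4477 bases took most reads, with 4777 counts in dKO and 1171 in WT, and it alone was 4.08-fold higher in dKO (3.82 to 4.35). The row of 4399 bases had 904 counts in dKO and 0 in WT. With WT set to a floor of 3 counts this is 301-fold higher, and the lower end of the 95% interval is 244-fold. That row held 15.3% of the dKO Gdnf reads (Wilson 95% interval 14.4 to 16.3). The row of 3449 bases had 107 counts in dKO and 27 in WT, and the row of 3761 bases 115 in dKO and 109 in WT, so 3 of the 4 rows were higher in dKO and the last was level within its counting interval (1.05-fold, 0.804 to 1.38). How reads shared by several transcripts were assigned to rows is not stated. For Gdnf and for the genes below, the split is therefore less certain than the sum.

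Bdnf, the gene of brain-derived neurotrophic factor (Entrez ID 12064, protein-coding, chromosome 2, 109674700 to 109727007, plus strand), had 680 counts in dKO and 286 in WT. This is 17.0 CPM in dKO (15.7 to 18.3) and 7.15 CPM in WT (6.34 to 8.03). The intervals do not overlap, and the dKO level was 2.38-fold the WT level (2.07 to 2.74). The log2 ratio of 1.14 stood close to the 2-fold line, at 0.91 under library totals alone and 0.86 with a pseudocount of 5 CPM, which ends the call. GENCODE M21 lists an antisense gene on the opposite strand within the Bdnf locus, and the strand setting of the counting is not given, so reads of both cannot be told apart.

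Of the 12 Bdnf rows, 9 had 0 counts in both libraries. The row of 4009 bases had 518 counts in dKO and 236 in WT, and was 2.19-fold higher in dKO (1.88 to 2.57). The row of 4001 bases had 144 counts in dKO and 9 in WT, 16.0-fold higher (8.19 to 35.7), and its share of the Bdnf reads was 21.2% in dKO (18.3 to 24.4) and 3.15% in WT (1.66 to 5.87). The row of 4123 bases went the other way, with 18 counts in dKO and 41 in WT (0.439-fold, 0.237 to 0.781). The rows with reads therefore did not share 1 direction, and the sum follows the most abundant of them.

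The other ligand genes showed no 2-fold difference. Ntf3, which encodes neurotrophin 3 (Entrez ID 18205, chromosome 6, 126101412 to 126166910, minus strand), had 720 counts in dKO and 693 in WT. Its levels of 18.0 CPM in dKO and 17.3 CPM in WT have overlapping intervals, with a fold of 1.04 (0.934 to 1.15). Nrtn, the neurturin gene (Entrez ID 18188, chromosome 17, 56751325 to 56757530, minus strand), had 68 counts in dKO and 93 in WT. It was the least abundant measured member, at 1.70 CPM in dKO (1.32 to 2.15) and 2.32 CPM in WT (1.88 to 2.85), and its fold of 0.731 has an interval that reaches 1.01. Ntf5, which encodes NT-4 (Entrez ID 78405, chromosome 7, 45413695 to 45417179, plus strand), had 0 counts in both libraries, where the floor of 3 counts stands for 0.0750 CPM and the upper end of the 95% Poisson interval for 0.0922 CPM.

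Ret, the signalling kinase shared by the GDNF family (Entrez ID 19713, chromosome 6, 118151745 to 118197718, minus strand), was the receptor gene with the widest difference. It had 2181 counts in dKO and 3836 in WT, or 54.5 CPM in dKO (52.2 to 56.8) and 95.9 CPM in WT (92.9 to 99.0). The intervals are well apart, yet the fold of 0.568 (0.539 to 0.599), a log2 ratio of −0.80, did not reach the 2-fold line. Under library totals alone the log2 ratio was −1.05, past that line, and with only the row of the highest mean share it was −0.12.

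The Ret difference sat in 1 of its 2 rows. The row of 6064 bases had 611 counts in dKO and 2142 in WT, 3.51-fold lower in dKO (3.20 to 3.84). The row of 7341 bases had 1570 counts in dKO and 1694 in WT, with a fold of 0.926 (0.864 to 0.993). The shorter row thus held 28.0% of the Ret reads in dKO (26.2 to 29.9) and 55.8% in WT (54.3 to 57.4). Mouse Ret is known to make a short and a long protein form that differ in their C-terminal tail. The row lengths do not say which row stands for which form, and how reads shared by both rows were assigned is not stated.

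Gfra1, the preferred co-receptor of GDNF (Entrez ID 14585, chromosome 19, 58235604 to 58455909, minus strand), was the most abundant member in both libraries. It had 8291 counts in dKO and 7252 in WT, or 207 CPM in dKO and 181 CPM in WT. The fold was 1.14 (1.11 to 1.18), and the log2 ratio of 0.19 turned to −0.06 under library totals alone and to −0.02 with a trend on abundance and length removed, so no direction can be read. Its row of 4664 bases had 4932 counts in dKO and 3764 in WT, its row of 4649 bases 3359 in dKO and 3457 in WT, and its row of 4750 bases 0 in dKO and 31 in WT. An antisense gene lies on the opposite strand of the Gfra1 locus too.

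Gfra2, the preferred co-receptor of neurturin (Entrez ID 14586, chromosome 14, 70890120 to 70979838, plus strand), had 586 counts in dKO and 617 in WT. Its levels of 14.6 CPM in dKO and 15.4 CPM in WT overlap in their intervals (fold 0.949, 0.846 to 1.06). Its 2 smaller rows moved in opposite ways, with 88 counts in dKO and 34 in WT for the row of 3172 bases and 53 in dKO and 95 in WT for that of 3088 bases. Ngfr, the gene of the p75 neurotrophin receptor (Entrez ID 18053, chromosome 11, 95568818 to 95587735, minus strand), had 870 counts in dKO and 840 in WT. It was at 21.7 CPM in dKO (20.3 to 23.2) and between 19.6 and 22.5 CPM in WT by the counting intervals, with a fold of 1.04 (0.941 to 1.14). The log2 ratios of Ntf3 and Ngfr (both 0.05) were −0.19 under library totals alone, and that of Gfra2 (−0.07) was 0.09 with the trend removed.

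**Figure D2:**
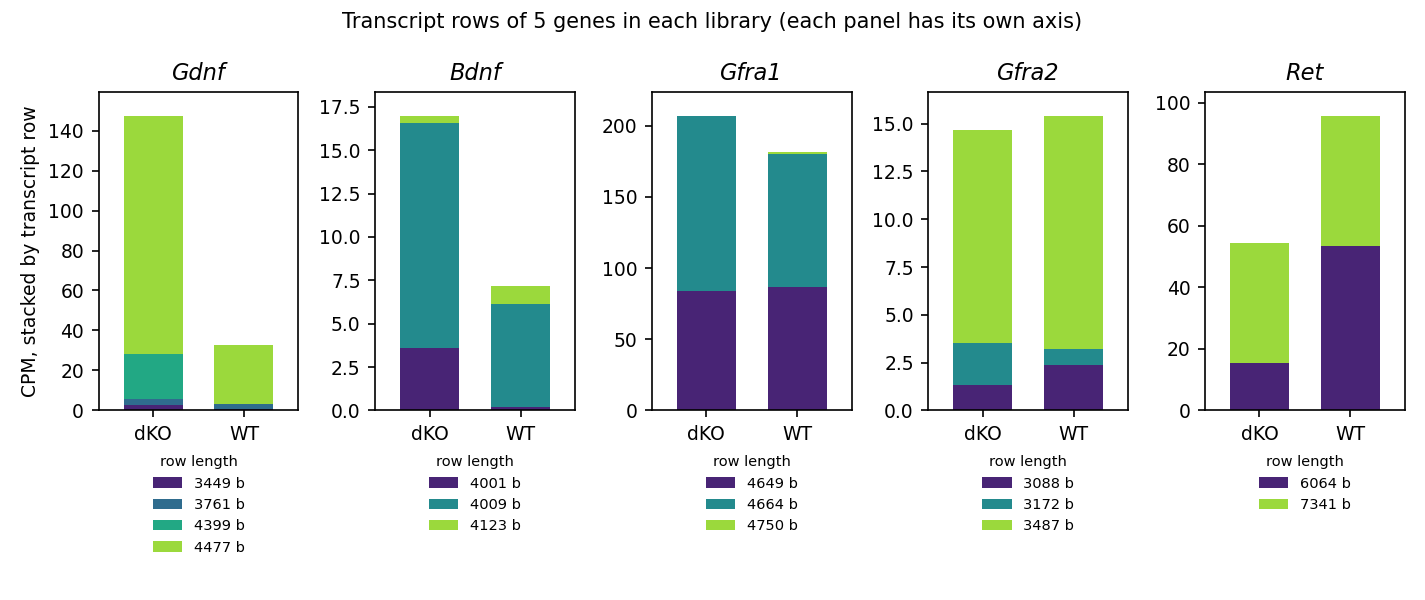
CPM of each transcript row with reads, stacked to the total of the gene, for 5 genes with several rows (each panel has its own linear axis from 0, dKO left of WT, rows named by length in bases). The Ret gap lies in the row of 6064 bases, and the Gdnf row of 4399 bases has reads in dKO and 0 in WT.

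Per transcript length, the order of the ligand and receptor genes differed between the libraries. In RPKM (CPM per kilobase of transcript, with the length of the row that has the highest mean share of both libraries), the dKO order was Gfra1 (44.4), Gdnf (32.9), Ntf3 (13.4), Ret (7.42), Ngfr (6.38), Bdnf (4.24), Gfra2 (4.20), Nrtn (1.63) and Ntf5 (0). In WT it was Gfra1 (38.9), Ret (13.1), Ntf3 (12.9), Gdnf (7.30), Ngfr (6.16), Gfra2 (4.42), Nrtn (2.23), Bdnf (1.78) and Ntf5 (0). Neighbours with overlapping counting intervals were Bdnf and Gfra2 in dKO, and in WT both Ret with Ntf3 and Nrtn with Bdnf. With each row's reads divided by its own length, Ret was 7.86 RPKM in dKO (7.54 to 8.20) and 14.6 RPKM in WT (14.1 to 15.1), which is then clear of Ntf3 in WT (12.0 to 13.9), and Gfra2 and Bdnf changed places in dKO with intervals that still overlap. Gdnf thus stood above Ret in dKO and below it in WT. The RPKM of Gdnf was 0.742 of that of Gfra1 in dKO and 0.188 in WT, and the RPKM of Ret was 0.167 of that of Gfra1 in dKO and 0.336 in WT. Among all measured genes, Gdnf lay at percentile 85.1 of RPKM in dKO and 55.6 in WT, and Ret at 56.6 in dKO and 69.7 in WT.

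**Figure D3:**
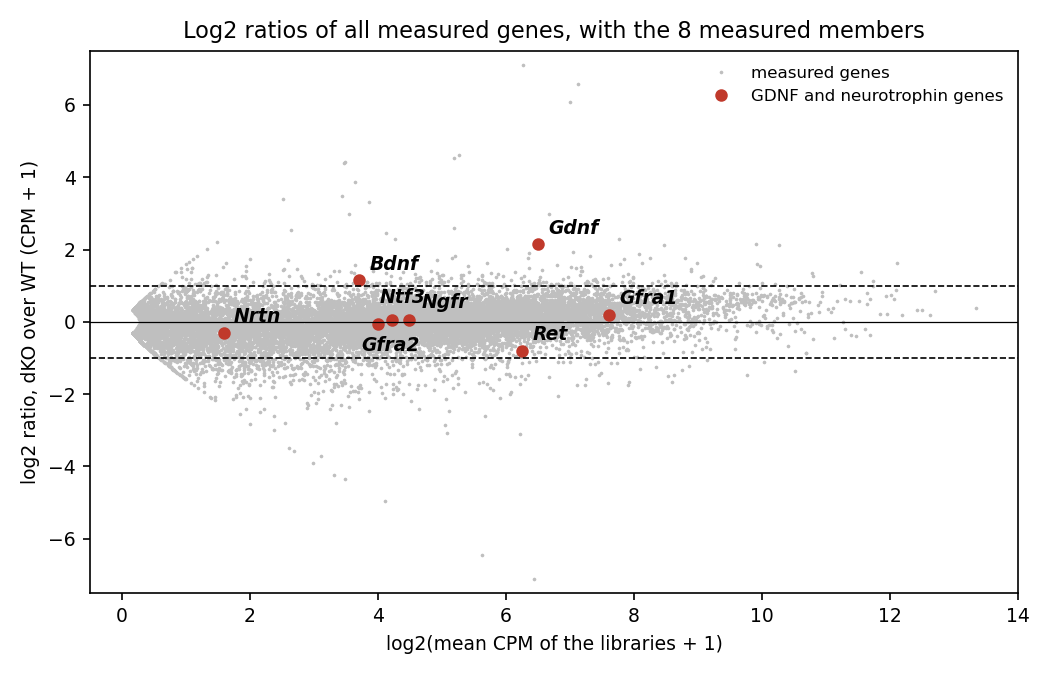
Log2 ratio of dKO over WT against log2 mean CPM for the 14885 measured genes (grey) and the 8 measured members (red), with dashed lines at 2-fold. Gdnf (2.14) and Bdnf (1.14) lie above the upper line and Ret (−0.80) stands above the lower one.

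Few of the other genes of these pathways were 2-fold apart between the libraries. Of 47 further pathway genes in 6 lists, 42 were measured, with a median log2 ratio of −0.07. Of these, 0 were 2-fold higher in dKO and 1 was 2-fold lower. Over all measured genes the shares were 1.92% higher and 4.3% lower, so few calls would be met in a list of this size anyway. The gene past the line was Ntrk3, which encodes TrkC, the main receptor of neurotrophin 3. It had 53 counts in dKO and 163 in WT and was 3.08-fold lower in dKO (2.24 to 4.28), with a log2 ratio of −1.13 that is small beside the fold because its level is low. With a pseudocount of 5 CPM or with the trend removed, 0 of the pathway genes were 2-fold lower.

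Among the other GDNF family ligands and receptors, 6 of 8 were measured, 3 with a ratio above 0 and 3 below. Ncam1, an adhesion molecule that can serve as a Ret-independent GDNF receptor, had 382 CPM in dKO and 365 CPM in WT. Sdc3, a syndecan that binds GDNF, had 145 CPM in dKO and 150 CPM in WT. The ligand gene Pspn and the receptor gene Gfral had 0 counts in both libraries. Gfra3, the co-receptor of artemin, chosen after its value was seen, had 889 counts in dKO and 464 in WT, 1.92-fold higher (1.71 to 2.15) and just inside the 2-fold line at a log2 ratio of 0.88.

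Among the other neurotrophin ligands and receptors, 9 of 9 were measured and 7 had a ratio below 0. Kidins220, a scaffold bound by Trk receptors and p75, had 121 CPM in dKO and 128 CPM in WT. Sort1, the sortilin co-receptor for pro-neurotrophins, had 57.0 CPM in dKO and 68.4 CPM in WT. Ntrk2, the gene of the BDNF receptor TrkB, chosen after its value was seen, had 662 counts in dKO and 937 in WT (fold 0.706, 0.638 to 0.781).

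Of the genes that process pro-neurotrophins, 5 of 6 were measured and 0 were 2-fold apart. Furin, the convertase that cleaves pro-neurotrophins within the cell, had 305 CPM in dKO and 172 CPM in WT (log2 ratio 0.82). Plat, the plasminogen activator whose product plasmin cleaves proBDNF, had 190 CPM in dKO and 132 CPM in WT. The plasminogen gene Plg had 0 counts in both libraries. Pcsk6, another convertase, named after its value was seen, went the other way. It was 2.05-fold lower in dKO (1.85 to 2.27), with a log2 ratio of −0.98 just inside the line.

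Of 13 adaptor genes of Ret and the Trk receptors, 11 were measured and 0 were 2-fold apart, 8 of them with a ratio below 0. Shc1 had 155 CPM in dKO and 133 CPM in WT. Grb2, which links the activated receptors to Ras, had 159 CPM in dKO and 80.1 CPM in WT, a log2 ratio of 0.98 at the edge of the rule. The p75 partners had 6 of 8 measured genes above 0 and 0 2-fold apart. Lingo1 had 32 counts in dKO and 12 in WT, and Rtn4r 0 in dKO and 10 in WT. Both, named after their values were seen, were below 1 CPM in each library, where the rule can call no gene. The abundant p75-binding gene Maged1 had 679 CPM in dKO and 420 CPM in WT, and Arhgdia had 476 CPM in dKO and 390 CPM in WT. The Ets factor genes downstream of Ret did not differ by 2-fold, and Etv5 had 61.4 CPM in dKO and 61.9 CPM in WT, with Etv1 at 4.30 CPM in dKO and 5.80 CPM in WT.

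Markers of other cells differed between the libraries beside these genes, and their part in the differences was not tested. Schwann cells of muscle nerves are known to express Ngfr, Gfra1 and, after injury, Gdnf and Bdnf. All 14 glial (Schwann) markers were measured, 7 with a ratio above 0 and 7 below, and 0 were at 0 counts in either library. Where 6.22% of all measured genes were 2-fold apart, 0 of these markers were. Their summed level was 753 CPM in dKO and 813 CPM in WT. Without Pmp22, the most abundant of them, it was 334 CPM in dKO and 400 CPM in WT. Log2 ratios ran from −0.63 to 0.64. Among the most abundant were Pmp22 (420 CPM in dKO, 414 CPM in WT) and Mbp (55.2 CPM in dKO, 79.4 CPM in WT), so RNA of glial marker genes was read in both libraries.

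Markers of endothelial and immune cells, which the gate on CD31 and CD45 was meant to remove, were lower in dKO. Among all measured genes, 4.3% were 2-fold lower and 1.92% were 2-fold higher. Of 15 endothelial markers, 15 had a ratio below 0 and 12 were 2-fold lower, with sums of 393 CPM in dKO and 892 CPM in WT. Of 15 immune markers, 15 were below 0 and 13 were 2-fold lower, with sums of 73.3 CPM in dKO and 233 CPM in WT. Fibro-adipogenic progenitor markers, of stromal cells, had 8 of 13 genes 2-fold lower and sums of 4825 CPM in dKO and 6460 CPM in WT. Tendon markers had 2 of 8 genes 2-fold lower (Scx and Thbs4) and sums of 2316 CPM in dKO and 4705 CPM in WT. Mural markers had 3 of 10 (Myh11, Kcnj8 and Cnn1) and 9 of 10 with a ratio below 0. Their sums were 2907 CPM in dKO and 2854 CPM in WT, and without the most abundant of them, Notch3, 1166 CPM in dKO and 1653 CPM in WT. In each of these 5 lists, 0 genes were 2-fold higher. Myofibre markers had 0 of 11 genes 2-fold apart, with sums of 1048 CPM in dKO and 1243 CPM in WT. Muscle stem cell markers had 1 of 12 genes 2-fold higher (Msc, a muscle transcription factor gene, log2 ratio 1.15) and 0 lower, with 6 ratios above 0 and 6 below. Their sums were 10125 CPM in dKO and 7940 CPM in WT, and without the most abundant of them, Sdc4, 5252 CPM in dKO and 4960 CPM in WT. None of these marker genes was at 0 counts in either library. The genes named from the tendon, mural and stem cell lists were chosen after their values were seen. By direction alone, Gdnf and Bdnf differed in the opposite way to the glial, endothelial, immune, progenitor, tendon and myofibre sums. Ret differed in the same way as those sums. So did Pax7, which had the lowest log2 ratio of the 12 stem cell markers (−0.82), 6 of which were above 0. The sort antigen gene Vcam1 was among those 6, with 1059 CPM in dKO and 595 CPM in WT. Any link between these directions was not tested. Which cells made the RNA of a marker gene is not known from such bulk RNA. Fewer cells of a type and less RNA per cell cannot be told apart in it either.

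**Figure D4:**
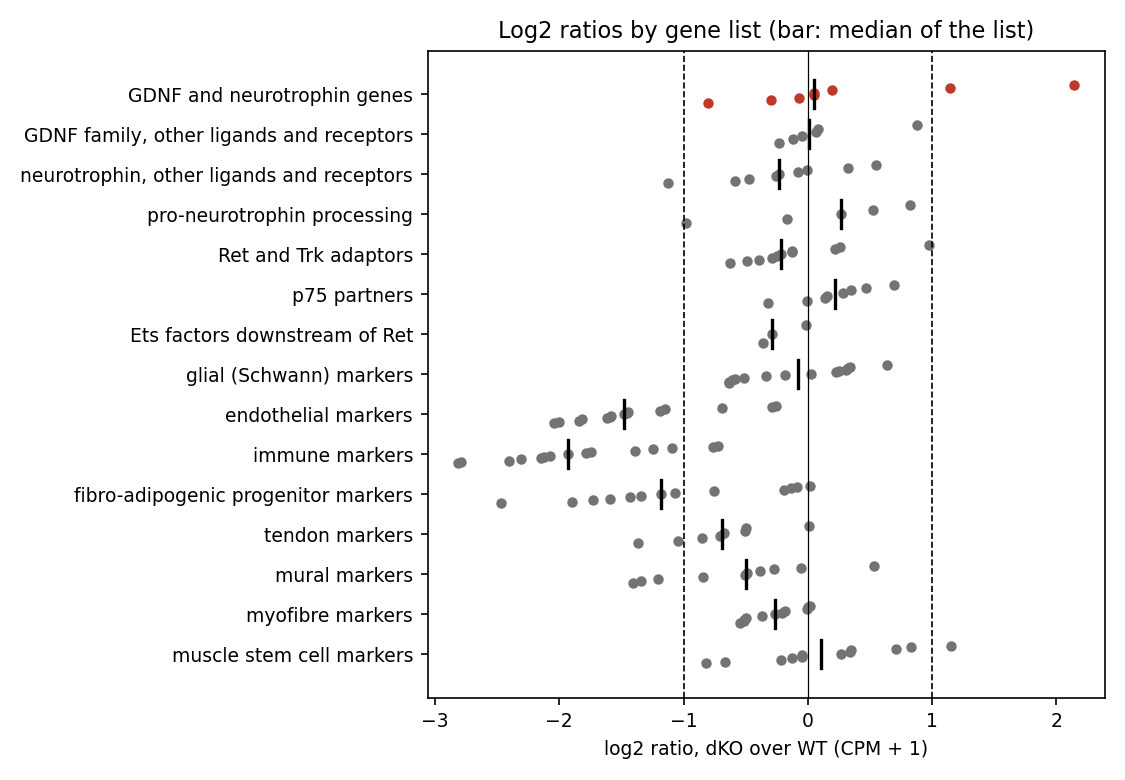
Log2 ratio of dKO over WT of each measured gene (points) by list, with the list median as a bar and dashed lines at 2-fold. The members (red, top) spread from −0.80 to 2.14, glial markers lie on both sides of 0, and all endothelial and immune markers lie below 0.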

How the data were processed

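RNA was measured in 2 libraries, 1 dKO and 1 WT, grouped by the genotype label. Per the file headers, the deposited table holds raw read counts in 1 row for each transcript, beside its gene ID (Entrez) and length. The submitters' processing notes name mm10, edgeR, bedtools and TopHat2 (version 2.0.9) without saying what each did. The counting rule, the annotation and the strandedness were not stated. The 36780 rows held 24532 gene IDs, of which 24462 matched a RefSeq symbol on GRCm38. The rows of a gene were summed, and TMM factors came from edgeR 4.0.16 (limma 3.58.1, R 4.3.3), at 0.916 for dKO and 1.09 for WT. Folds carry exact conditional binomial intervals and counts exact Poisson intervals (scipy 1.17.1). The steps were tested on simulated Poisson counts, which hold no spread between mice and so say nothing about it. No batch is given in the labels.

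The members, lists and rules were chosen with earlier results of these data known. The text names all 9 members, the other pathway genes 2-fold apart, the 2 with the most counts in each pathway list, up to 3 abundant glial markers and the genes nearest in level to the 2 members with the largest log2 ratio. Other genes are said to be chosen after their values were seen, with some exceptions. Pax7 and Esr2 were checks, Pspn, Gfral and Plg were named for their 0 counts, and Notch3 and Sdc4 as the most abundant of their lists. Alternatives were median-ratio scaling (DESeq2 1.42.0), library totals, pseudocounts of 0.1 and 5 CPM, the row with the highest mean share, count minimums of 1 and 100, 1.5-fold and 4-fold rules, and a cubic trend on abundance and length taken out. A gene of the dKO genotype and a few other genes are not reported here.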

Additional observations from a re-analysis of the deposited data

How the results depend on the processing

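No paired analysis was possible because each group has 1 library. In the main analysis, 2 members were higher and 0 lower by 2-fold, 0 and 1 of the pathway genes, and 286 and 640 of all measured genes. Under library totals alone, 1 member was higher and 1 lower, 2 pathway genes were lower, and 130 genes were higher and 1040 lower, with the median over all measured genes at a log2 ratio of −0.24 in place of −0.02. With a pseudocount of 0.1 CPM, 2 pathway genes were higher and 3 lower, against 698 and 1653 of all genes. With 5 CPM, 1 member was higher and 0 pathway genes lower, against 154 and 187 of all genes. With the row of the highest mean share, 474 of all genes were higher and 936 lower. By a 1.5-fold rule, 1 member was lower, 4 pathway genes were higher and 4 lower, and 1336 of all genes were higher and 1955 lower. By a 4-fold rule, 1 member was higher and 0 pathway genes lower, against 25 and 56 of all genes. With the trend removed, 0 pathway genes were lower. Gdnf, Bdnf, Nrtn and Ret kept the sign of their log2 ratio in each of 6 alternatives, with ranges of 1.89 to 2.17, 0.86 to 1.37, −0.47 to −0.13 and −1.05 to −0.12. The 2 libraries give no estimate of the spread between mice, and depth limits Nrtn and Ntf5.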

Other observations

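The genes whose levels in the 2 libraries lay nearest to those of Gdnf and Bdnf were found by the distance between pairs of log2(CPM + 1) values, which over 2 libraries describes a level and a ratio only. Nearest to Gdnf were Adamts9, a matrix protease gene (128 CPM in dKO, 33.9 CPM in WT, distance 0.21), Rnf217 (125 CPM in dKO, 35.9 CPM in WT, distance 0.27) and Cxcl2, a chemokine gene (120 CPM in dKO, 41.9 CPM in WT, distance 0.46). Nearest to Bdnf were Riox1 (17.8 CPM in dKO, 7.45 CPM in WT, distance 0.08), Hilpda, a lipid droplet gene (15.5 CPM in dKO, 6.82 CPM in WT, distance 0.13), and Mrln, which encodes the micropeptide myoregulin (15.8 CPM in dKO, 7.92 CPM in WT, distance 0.17).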
